A study of Rattus norvegicus with 13 samples.

Results

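Among the 14790 genes of the deposited table, 10 genes of the choice between glucose and fatty acids as mitochondrial fuel were taken by their symbols. They are the 4 pyruvate dehydrogenase kinases *Pdk1*, *Pdk2*, *Pdk3* and *Pdk4*, the carnitine palmitoyltransferases *Cpt1a* and *Cpt2*, the acyl-CoA dehydrogenases *Acadm*, *Acadl* and *Acadvl*, and *Angptl4*. All 10 were in the table and all met the minimum mean of 1 normalized count. *Pdk4* prompted the choice because it was higher at 10 weeks, so its difference between the ages is described here without a test. The other 9 genes were chosen by name alongside it.

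The RNA came from mammary epithelial cells of Wistar-Furth rats, 6 at 6 weeks of age (entering the window of susceptibility to mammary cancer, called within WOS) and 7 at 10 weeks (leaving it, called outside WOS), with 1 library per rat. All rats were of the susceptible strain, and no label names a transgene, a drug or another treatment. Per the paper, the glands for RNA were minced and digested with collagenase, and ductal organoids were collected by differential centrifugation. The cells are therefore enriched for epithelium and also hold stromal and immune cells. In such bulk samples, fewer cells of a type and less RNA per cell cannot be told apart. The labels number the libraries and do not say whether any animals were pooled, so p-values measure the spread between these libraries.

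Pyruvate dehydrogenase turns pyruvate from glycolysis into acetyl-CoA, and the kinases PDK1 to PDK4 switch it off by phosphorylating its E1 alpha subunit, while the phosphatases PDP1 and PDP2 switch it on again. Long-chain fatty acids enter the mitochondrion through CPT1 at the outer membrane and CPT2 at the inner membrane, and the acyl-CoA dehydrogenases then catalyse the first step of each round of beta oxidation. *Pdk4* is known in muscle, liver and heart as a gene induced by fasting, glucocorticoids and fatty acids through the PPAR receptors, and *Angptl4*, whose protein inhibits lipoprotein lipase, is a target of the same receptors.

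The stretches around the start sites of the 3 kinase genes that stood furthest from 0 between the ages are shown for their sequence motifs. Each was taken as 250 bases before to 50 bases after a RefSeq start in build GRCr8, 5′ to 3′ on the gene's own strand. Capitals mark every match to a searched motif. *Pdk4* lies at chr4:34568280-34568579 on the minus strand (61.3% G and C), *Pdk3* at chrX:62547322-62547621 on the minus strand (69.3%) and *Pdk1* at chr3:77113264-77113563 on the plus strand (72%). The windows of *Pdk4* and *Pdk3* are placed on the start of the RefSeq gene record. That of *Pdk1*, whose record starts at 77113464, is not, nor are some windows searched below, such as that of *Cpt1a*. Which start was used for these is not given.
Pdk4: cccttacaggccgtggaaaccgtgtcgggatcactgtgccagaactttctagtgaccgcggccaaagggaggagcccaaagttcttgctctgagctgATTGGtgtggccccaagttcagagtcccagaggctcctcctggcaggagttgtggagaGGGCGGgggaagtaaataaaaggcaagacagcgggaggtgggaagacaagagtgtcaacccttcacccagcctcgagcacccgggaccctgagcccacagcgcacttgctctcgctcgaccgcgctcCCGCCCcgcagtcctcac
Pdk3: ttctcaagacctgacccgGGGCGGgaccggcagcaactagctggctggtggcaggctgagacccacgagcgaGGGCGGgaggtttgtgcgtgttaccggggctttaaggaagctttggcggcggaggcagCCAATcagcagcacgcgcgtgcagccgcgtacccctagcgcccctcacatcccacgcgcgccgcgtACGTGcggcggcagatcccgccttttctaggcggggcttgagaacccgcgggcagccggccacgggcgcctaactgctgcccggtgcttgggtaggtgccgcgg
Pdk1: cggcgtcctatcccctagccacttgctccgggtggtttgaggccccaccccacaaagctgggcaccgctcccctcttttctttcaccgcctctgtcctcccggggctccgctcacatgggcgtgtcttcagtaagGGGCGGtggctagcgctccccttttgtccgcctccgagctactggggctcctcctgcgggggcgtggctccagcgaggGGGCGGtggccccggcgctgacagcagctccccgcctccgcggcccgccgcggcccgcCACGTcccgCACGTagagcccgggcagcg
In the *Pdk4* stretch the capitals are a CCAAT box, read on the opposite strand, and 2 GC boxes (GGGCGG). The *Pdk3* stretch held 2 GC boxes, a CCAAT box and ACGTG, the core of the hypoxia response element, and the *Pdk1* stretch held 2 GC boxes and 2 copies of ACGTG. Both strands were searched in RefSeq promoters of this length, which were matched for 9 of the 10 genes. Over all 33469 promoters, CCAAT was present in 37.5%, GGGCGG in 33.1% and ACGTG in 19.3%. Of the 9 genes, *Pdk2*, *Pdk3* and *Pdk4* held CCAAT, and *Pdk1*, *Pdk2*, *Pdk3* and *Angptl4* held ACGTG, which in *Pdk2* lay inside the E-box CACGTG (6.42% of all promoters). The letters of a full PPAR response element (DR1, both repeats intact, 0.0538% of all promoters), TGTTTAC of a forkhead site (3.78%) and AGAACA, a short glucocorticoid receptor motif (20.7%), were not in the windows of the 9 genes. *Acadvl* held the nuclear receptor motif AGGTCA (16.2%) and *Angptl4* held a TATA box, TATAAA (14.2%). A match is a match of letters in these windows and does not show a bound site.

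The deposited values are counts per gene that the authors scaled for each library and rounded to whole numbers, and are called normalized counts below. Their totals lay between 13261906 and 15659533 within WOS and between 13766735 and 15402814 outside WOS. Limma was run on log2(normalized count + 1) to compare the ages, and p-values were adjusted after Benjamini-Hochberg over all 14790 genes, with genes under 0.05 counted as called. On this scale the change of a gene with few counts comes out too small. The log2 fold change (log2FC) is 10 weeks over 6 weeks, so positive values mean more RNA at 10 weeks, and SE is its standard error. With the mean of each age removed, the first component held 28.3% of the variation left and parted the rats into a larger set of 8 (4 of each age) and a smaller set of 5 (rats 75 and 80 at 6 weeks and rats 78, 81 and 83 at 10 weeks). No label names this split, and the 10 genes were left out when it was computed. Whole numbers can go missing from a library that is scaled up. Of the numbers 1 to 30, 10, 15, 16, 7 and 0 were absent in rats 75, 80, 78, 81 and 83 of the smaller set. In the larger set 4, 8 and 4 were absent in rats 72, 74 and 87, and 0 in each of the others. What part sequencing depth had in the split was not tested. The sets were formed from the spread between these same rats, so p-values within a set can come out too small.

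**Figure D1:**
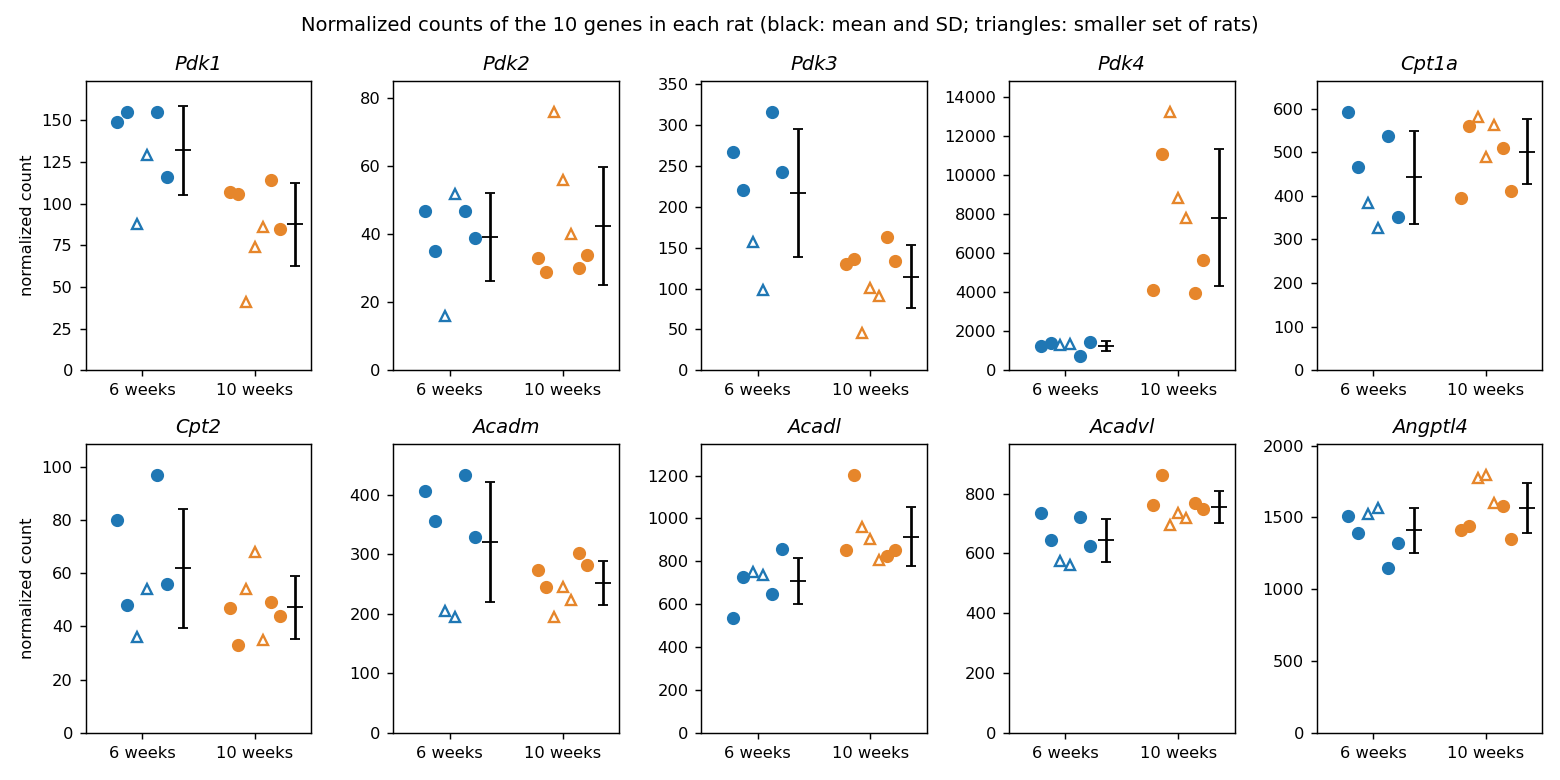
Normalized count (vertical axis of each panel, starting at 0) of each of the 10 genes in the 6 rats at 6 weeks and the 7 rats at 10 weeks. Each point is 1 rat, triangles mark the smaller set of rats and black bars give the mean and SD of each age. The 7 *Pdk4* points at 10 weeks lie between 3981 and 13242, above all 6 points at 6 weeks, while the ages overlap in the other 9 panels.

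*Pdk4* (ENSRNOG00000009565) was the gene of the group that differed most between the ages. Within WOS its normalized count was lowest at 733, had a median of 1314 and was highest at 1462, with a mean of 1248 ± 262 (SD, n = 6). Outside WOS it ran from 3981 through a median of 7806 to 13242, with a mean of 7816 ± 3516 (SD, n = 7). All 7 rats at 10 weeks therefore lay above all 6 rats at 6 weeks, a separation found for 6.07% of all genes in either direction and for 2.78% with 10 weeks higher. With an SE of 0.29, the log2FC was 2.55, or 5.85-fold on the log2(normalized count + 1) scale, and ranked 14 of 14790 among differences towards 10 weeks. As a share of each library, *Pdk4* took 52.7 to 103 counts in every 1000000 of the column total within WOS and 285 to 898 outside WOS.

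The rats at 10 weeks were also less alike in *Pdk4* than the rats at 6 weeks, with a coefficient of variation of 44.98% against 21.0%. The highest value at 10 weeks, in rat 78, was 3.33 times the lowest, in rat 85, and at 6 weeks the highest was 1.99 times the lowest. Rats 74, 78 and 81 held the 3 highest values and rats 72 and 85 the lowest ones. In the larger set *Pdk4* had a log2FC of 2.27 and in the smaller one 2.88, a difference that was not tested. Fits with 1 rat left out gave 2.40 to 2.69.

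Of the 9 other genes, 0 passed the adjusted threshold, where 16.1% of all genes passed it. An unadjusted p under 0.05 was found for 4 of the 9, with 31.6% of all genes under it. *Pdk1* and *Pdk3* were the ones with lower means at 10 weeks (16.8% of all genes), and *Acadl* and *Acadvl* those with higher means (14.8%). The median log2FC of the 9 genes was 0.12 beside -0.03 over all genes tested, and 5 of the 9 values were positive, as were 47.5% of those of all genes. The choice of model moved the count. Limma-trend called *Pdk3* and *Acadl* (17.6% of all genes), sample quality weights called *Pdk1*, *Pdk3*, *Acadm* and *Acadl* (38.2%), and the first residual component as a term called *Pdk1*, *Pdk3* and *Acadvl* (23.8%). That component was computed with the mean of each age removed, so as a term it leaves the log2FC unchanged and mainly lowers the error. Its p-values can therefore come out too small.

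**Figure D2:**
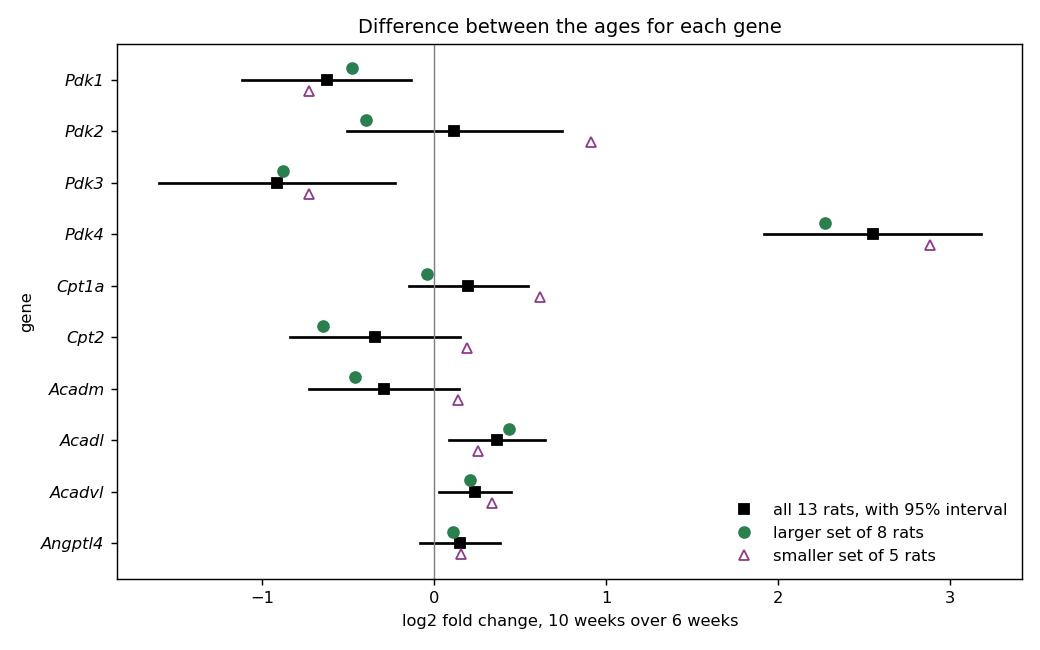
Log2FC, 10 weeks over 6 weeks (horizontal axis), of the 10 genes in all 13 rats (squares, with bars for the 95% confidence interval from limma), in the larger set of 8 rats (circles) and in the smaller set of 5 rats (triangles). In all 13 rats *Pdk4* stands at 2.55 and the other 9 genes lie between -0.91 and 0.37, and the sets stand furthest apart for *Pdk2*, at -0.40 and 0.91.

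Of the 3 other kinases, *Pdk1* and *Pdk3* had lower means at 10 weeks and *Pdk2* a slightly higher one, and the ages overlapped in all 3. *Pdk3* (ENSRNOG00000012513), a kinase that pyruvate inhibits only weakly, ran from 98 through a median of 231 to 316 within WOS and from 45 through 130 to 163 outside WOS. Its means were 217 ± 78.4 (SD, n = 6) and 114 ± 38.7 (SD, n = 7), and 4 of 6 rats at 6 weeks lay above every rat at 10 weeks. The other pair at 6 weeks, rats 75 and 80, fell inside the range of the older rats. The log2FC was -0.91 (SE 0.32, 95% interval -1.60 to -0.23), with an adjusted p of 0.0673 from limma. Without rat 80 the adjusted p was 0.0243, and over all fits that left out 1 rat it ran up to 0.147. In the larger set of rats alone, where 220 to 316 at 6 weeks stood against 130 to 163 at 10 weeks, limma gave -0.88 and an adjusted p of 0.00707, with 23.5% of all genes called. In the smaller set the value was -0.73 with an adjusted p of 0.523.

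*Pdk1* (ENSRNOG00000001517), a target gene of the hypoxia-inducible factor in many cells, ran from 88 to 155 at 6 weeks (median 139) and from 41 to 114 at 10 weeks (median 86). Its means were 132 ± 26.6 (SD, n = 6) and 87.6 ± 25.1 (SD, n = 7). Rat 75 was the 1 rat at 6 weeks that did not lie above all rats at 10 weeks. The log2FC was -0.62 (SE 0.23, 95% interval -1.11 to -0.13), with an adjusted p of 0.0789 from limma. Without rat 75 the adjusted p was 0.0477, and the highest with 1 rat left out was 0.156. The larger set alone gave -0.47 with an adjusted p of 0.0464, and the smaller set gave -0.73 with an adjusted p of 0.481.

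*Pdk2* (ENSRNOG00000004172), a kinase found in most tissues, was counted at 16 to 52 within WOS, with a median of 43, and at 29 to 76 outside WOS, with a median of 34. Its means of 39.3 ± 12.97 (SD, n = 6) and 42.6 ± 17.4 (SD, n = 7) overlapped widely. The log2FC of 0.12 (SE 0.29, 95% interval -0.51 to 0.74) had an adjusted p of 0.815 from limma. Its sign depended on few rats, since it was -0.40 in the larger set and 0.91 in the smaller set, and -0.12 without rat 75.

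The ratio of *Pdk4* to another kinase within a rat does not depend on how that library was scaled. These ratios were chosen after the values were seen and rest on the *Pdk4* difference described above. *Pdk4* over *Pdk3* ran from 2.32 to 13.5 at 6 weeks (median 6.21) and from 24.4 to 294 at 10 weeks (median 81.5). *Pdk4* over *Pdk1* was between 4.73 and 14.9 at 6 weeks and between 34.9 and 323 at 10 weeks, and *Pdk4* over *Pdk2* between 15.6 and 81.8 and between 125 and 382. In all 3 ratios every rat at 10 weeks lay above every rat at 6 weeks. The highest ratio to *Pdk3* and to *Pdk1* came from rat 78, which had the highest *Pdk4* and the lowest *Pdk1* and *Pdk3* of all rats.

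**Figure D3:**
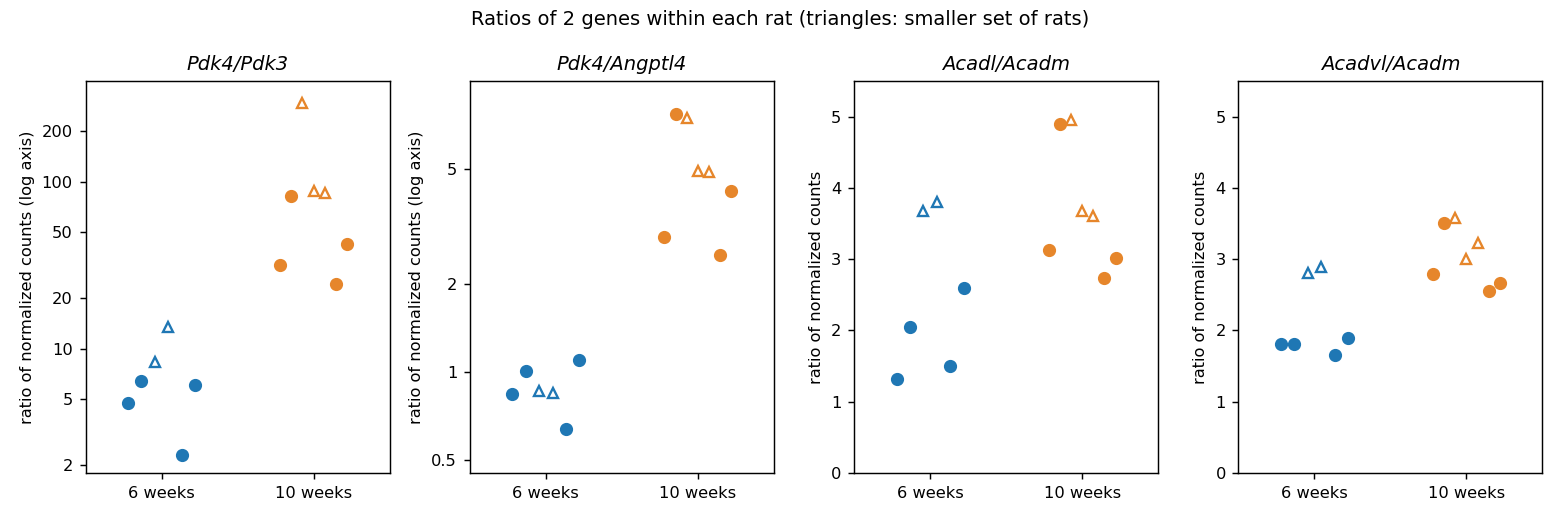
Ratio of the normalized counts of 2 genes within each rat, by age, with triangles for the smaller set of rats. The vertical axis is logarithmic for the 2 ratios with *Pdk4* and starts at 0 for the others. *Pdk4* over *Pdk3* and *Pdk4* over *Angptl4* part the ages, while *Acadl* over *Acadm* and *Acadvl* over *Acadm* overlap between them. The 2 ratios with *Pdk4* rest on the *Pdk4* difference that prompted the choice of genes.

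The enzyme that the kinases act on and the phosphatases that oppose them were examined next, from lists of pathway genes chosen by name. *Pdp1*, the phosphatase that reactivates pyruvate dehydrogenase, was lower outside WOS. It ran from 840 to 1242 at 6 weeks (median 929) and from 452 to 862 at 10 weeks (median 622), with a log2FC of -0.61 (SE 0.15, adjusted p 0.0155 from limma). Its call held with each rat left out in turn, and the larger set of rats alone gave an adjusted p of 0.0655. *Pdp2*, the second phosphatase, was at 242 to 299 and 235 to 337 (log2FC 0.08, adjusted p 0.605). *Pdha1*, the E1 alpha subunit that the kinases phosphorylate, was at 1670 to 2306 and 1543 to 2511 (log2FC -0.06, adjusted p 0.806). *Pdhb*, the E1 beta subunit, had a mean of 529 ± 66.8 (SD, n = 6) at 6 weeks and 405 ± 56.2 (SD, n = 7) at 10 weeks, with a log2FC of -0.39 and an adjusted p of 0.0465. All 7 genes of the list of the complex and of pyruvate import had a negative log2FC, with a median of -0.26. *Pdhb* was the 1 of them called, where 8.71% of all genes were called lower. In the larger set 6 of the 7 were negative (median -0.17) and 3 were called lower, beside 13.4% of all genes. In the smaller set 3 were negative (median 0.09) and 0 were called, and over all genes 0 were called there as well.

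*Cpt1a* (ENSRNOG00000014254), whose product is the malonyl-CoA-sensitive gate of mitochondrial fatty acid import, was counted at 326 to 592 in the younger rats (median 425.5) and at 394 to 580 in the older ones (median 509). The means of 443 ± 107 (SD, n = 6) and 501 ± 74.2 (SD, n = 7) differed by less than the spread within an age. The log2FC of 0.20 (SE 0.16, 95% interval -0.15 to 0.55) had an adjusted p of 0.423 from limma. It was -0.04 in the larger set and 0.61 in the smaller set, where 326 to 384 at 6 weeks stood against 490 to 580 at 10 weeks with an adjusted p of 0.293. *Cpt2* (ENSRNOG00000012443), which re-forms acyl-CoA inside the mitochondrion, was counted between 36 and 97 (median 55) and between 33 and 68 (median 47). Its log2FC was -0.35 (SE 0.23, 95% interval -0.84 to 0.15) with an adjusted p of 0.319, and the 6-week mean of 61.8 ± 22.5 (SD, n = 6) was drawn up by rats 70 and 84.

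Of the 12 genes listed for the carnitine shuttle and carnitine supply, 10 were in the table, and 9 of these 10 had a negative log2FC (median -0.52). Over all genes 47.5% had a positive log2FC. In the larger set 9 of the 10 were negative (median -0.54) and 3 were called lower, beside 13.4% of all genes. In the smaller set 7 were negative (median -0.21) and 0 were called, as was the case over all genes in that set. In all 13 rats *Crat*, the carnitine acetyltransferase, was the 1 of the 10 called, where 8.71% of all genes were called lower. *Crat* was at 136 ± 55.6 (SD, n = 6) at 6 weeks and 64.0 ± 27.6 (SD, n = 7) at 10 weeks (log2FC -1.08, adjusted p 0.0370 from limma). *Slc25a20*, the carrier that exchanges acylcarnitine for carnitine, had a log2FC of -0.56 with an adjusted p of 0.133. *Cpt1b*, the muscle form of CPT1, was at 76 to 144 and 56 to 188 (log2FC -0.30, adjusted p 0.448).

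Of the 3 acyl-CoA dehydrogenases the long-chain and very-long-chain enzymes had higher means at 10 weeks and the medium-chain enzyme a lower one, and 0 were called by limma. *Acadl* (ENSRNOG00000012966), the long-chain enzyme, ran from 538 to 857 at 6 weeks (median 733) and from 804 to 1204 at 10 weeks (median 855). Its means were 710 ± 107 (SD, n = 6) and 915 ± 138 (SD, n = 7), and 5 of 6 rats at 6 weeks lay below every rat at 10 weeks, with rat 86 inside their range. The log2FC was 0.37 (SE 0.13, 95% interval 0.09 to 0.65) with an adjusted p of 0.0695 from limma. Without rat 86 the adjusted p was 0.0467, and the highest with 1 rat left out was 0.153.

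*Acadvl* (ENSRNOG00000018114), the very-long-chain enzyme of the inner membrane, ran from 560 to 735 at 6 weeks (median 635) and from 694 to 863 at 10 weeks (median 749). Its means were 644 ± 72.9 (SD, n = 6) and 756 ± 54.0 (SD, n = 7), with rats 70 and 84 the ones at 6 weeks that reached into the range of the older rats. The log2FC was 0.24 (SE 0.10, 95% interval 0.03 to 0.45) with an adjusted p of 0.115 from limma. *Acadm* (ENSRNOG00000009845), the medium-chain enzyme, ran from 194 to 434 at 6 weeks (median 342.5) and from 194 to 302 at 10 weeks (median 246). Its log2FC was -0.29 (SE 0.20, 95% interval -0.73 to 0.14) with an adjusted p of 0.340. Rats 75 and 80 were the lowest at 6 weeks, at 205 and 194, and the other 4 lay above every rat at 10 weeks. In the larger set the log2FC of *Acadm* was -0.46 with an adjusted p of 0.0348, and in the smaller set it was 0.14 with an adjusted p of 0.742.

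Within a rat, *Acadl* over *Acadm* had a median of 2.33 within WOS (1.32 to 3.80) and 3.61 outside WOS (2.74 to 4.96). *Acadvl* over *Acadm* had a median of 1.86 (1.66 to 2.89) and 3.00 (2.55 to 3.58). Both ratios overlapped between the ages because rats 75 and 80 lay among the older rats. These ratios were also chosen after the values were seen and were not tested.

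Of 23 genes listed for mitochondrial beta oxidation, 22 were in the table, *Acadm*, *Acadl* and *Acadvl* among them. In all 13 rats 1 of the 22 was called higher at 10 weeks (7.39% of all genes) and 1 lower (8.71%), while 18 of 22 log2FCs were negative (median -0.43). With sample quality weights 17 were called lower and 2 higher (38.2% of all genes in either direction), and with 1 rat left out 0 to 5 were called lower (4 without rat 75 and 5 without rat 81). The gene called higher was *Acadsb*, which acts on short branched acyl-CoA from isoleucine, at 123 to 202 within WOS and 213 to 332 outside WOS (log2FC 0.76, adjusted p 0.00496 from limma). The gene called lower was *Acad8*, which acts on the valine breakdown product isobutyryl-CoA, at 43.7 ± 11.9 (SD, n = 6) and 26.9 ± 5.79 (SD, n = 7) with an adjusted p of 0.0384. Both act on products of branched-chain amino acids.

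The list looked different in the larger set of 8 rats taken alone. There 15 of the 22 genes were called lower at 10 weeks, with 13.4% of all genes called in that direction, and *Acadsb* was called higher (10.1%), and the median was -0.74. *Hadh*, which oxidises the hydroxyl group of medium and short chains, stood at 305 to 504 at 6 weeks and 138 to 186 at 10 weeks in these rats (log2FC -1.24, adjusted p 0.00605 from limma). *Acat1*, the mitochondrial acetoacetyl-CoA thiolase, stood at 422 to 664 and 275 to 338 (-0.84, adjusted p 0.0113). *Etfa*, a subunit of the flavoprotein that takes up electrons from the acyl-CoA dehydrogenases, stood at 471 to 728 and 286 to 406 (-0.84, adjusted p 0.0169). *Acaa2*, the 3-ketoacyl-CoA thiolase, stood at 312 to 708 and 162 to 287 (-1.24, adjusted p 0.0210). *Hadha* and *Hadhb*, the 2 subunits of the trifunctional protein, had log2FCs of -0.40 and -0.48 with adjusted p of 0.0372 and 0.0328.

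In the smaller set of 5 rats, 0 of the 22 genes were called by limma, and over all genes 0 were called as well, although 1993 had an unadjusted p under 0.05. The median of the list there was 0.13, and 6 of 22 values were negative. *Hadh* stood at 178 to 209 at 6 weeks and 156 to 345 at 10 weeks in these rats, and *Acaa2* at 262 to 292 and 289 to 522. The difference between the sets was not tested, and genes of this list other than *Acadm*, *Acadl* and *Acadvl* took part in forming the sets. Their adjusted p in the larger set can therefore come out too small, and the calls there are a description. *Hadh* and the 5 other genes named with it in the larger set were chosen after their values were seen.

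**Figure D4:**
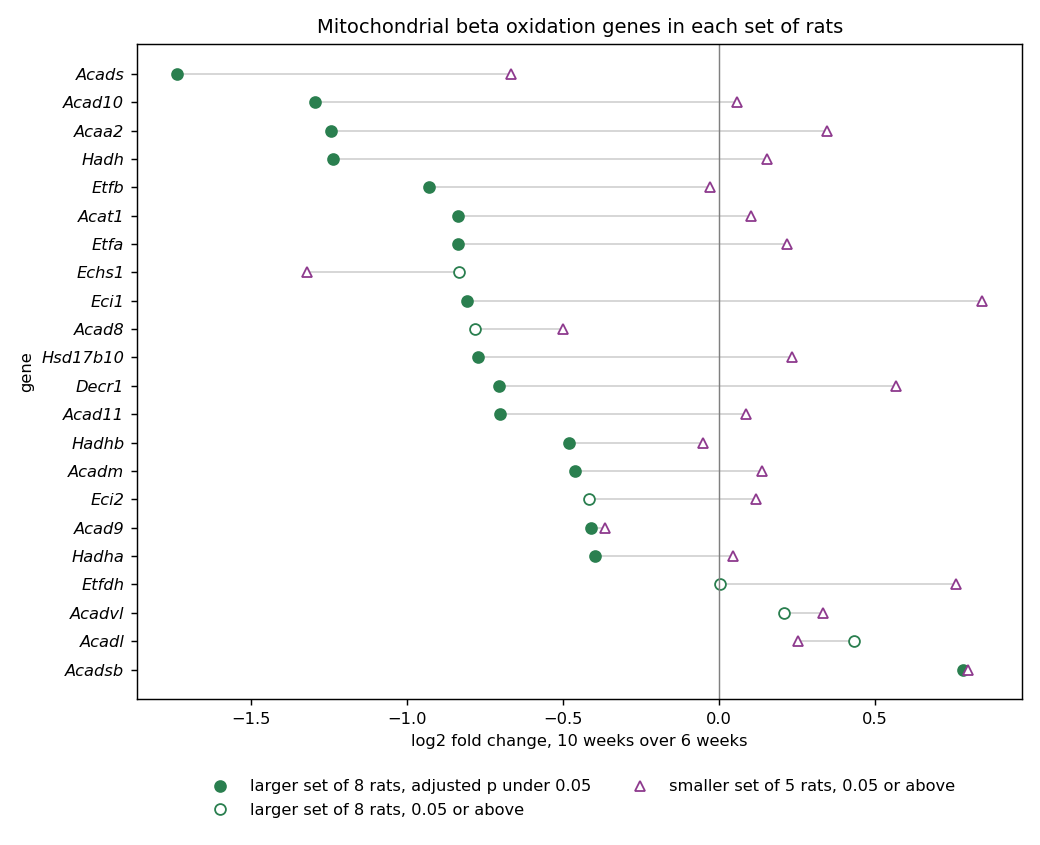
Log2FC, 10 weeks over 6 weeks (horizontal axis), of the 22 genes of mitochondrial beta oxidation in the larger set of 8 rats (circles, filled where the adjusted p was under 0.05) and in the smaller set of 5 rats (triangles). Circles lie left of 0 for 18 of 22 genes (median -0.74) and triangles for 6 of 22 (median 0.13).

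*Angptl4* (ENSRNOG00000007545) ran from 1150 to 1563 at 6 weeks (median 1451.5) and from 1353 to 1797 at 10 weeks (median 1578). Its means were 1410 ± 156 (SD, n = 6) and 1565 ± 174 (SD, n = 7), and the ages overlapped, with 4 of 7 rats at 10 weeks above every rat at 6 weeks. The log2FC was 0.15 (SE 0.11, 95% interval -0.08 to 0.38) with an adjusted p of 0.364 from limma. *Pdk4* over *Angptl4* within a rat was between 0.637 and 1.10 at 6 weeks and between 2.52 and 7.68 at 10 weeks. This ratio also rests on the *Pdk4* difference that prompted the choice of genes and was not tested.

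Around the lipase that ANGPTL4 inhibits, 4 of the 11 other genes of the lipoprotein lipase and lipolysis list were called lower at 10 weeks (8.71% of all genes) and 0 higher (7.39%). *Gpihbp1*, which anchors the lipase to capillary endothelium, stood at 113 to 173 within WOS and at 15 to 68 outside WOS without overlap (log2FC -1.74, adjusted p 0.00142 from limma). *Angptl8*, another inhibitor of the lipase, had a log2FC of -1.39, *Lmf1*, needed for the folding of the lipase, of -0.88, and *Mgll*, the monoglyceride lipase, of -0.48, with adjusted p of 0.0189, 0.0273 and 0.0334. *Lpl* itself was at 3726 ± 799 (SD, n = 6) and 2607 ± 620 (SD, n = 7), with a log2FC of -0.53 and an adjusted p of 0.0704, which was 0.0428 with limma-trend and 0.0487 under library size scaling.

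Some markers of white fat were also lower at 10 weeks. Of 11 such markers 7 were in the table, *Lpl* among them. *Adipoq*, *Plin1* and *Cfd* were called lower at 10 weeks (8.71% of all genes) and 0 higher (7.39%). *Fabp4* and *Lipe* had positive log2FCs of 0.09 and 0.38 and were not called. *Plin1* had few counts, at 4 to 19 within WOS and 0 to 6 outside WOS. *Adipoq*, the fat cell hormone adiponectin, was at 20 to 56 within WOS and at 0 to 12 outside WOS (log2FC -2.41, adjusted p 0.0130 from limma). The summed normalized count of the 7 markers was 4919 to 7552 within WOS and 3393 to 6249 outside WOS. The 6 endothelial markers in the table summed to 5639 to 9922 and 5538 to 8982, with 0 called. What part these cells had in the lipase genes or in *Pdk4* was not tested.

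Of the 3 PPAR receptors 0 were called. *Ppara* was at 19.2 ± 10.2 (SD, n = 6) and 27.0 ± 12.8 (SD, n = 7) with an adjusted p of 0.421 from limma. *Ppard*, the most widely expressed of the receptors, was at 1460 ± 564 and 1471 ± 575 (log2FC -0.01, adjusted p 0.983). *Pparg*, the fat cell receptor, was at 132 ± 14.7 and 119 ± 18.2 (adjusted p 0.421). The coactivator *Ppargc1a* was at 6 to 23 and 1 to 16 (log2FC -1.10, adjusted p 0.103). Of the 18 genes of the receptor, partner and coactivator list, 4 were called higher at 10 weeks (7.39% of all genes) and 0 lower (8.71%). They were *Lpin1* (log2FC 0.78, adjusted p 0.0221), whose product lipin 1 also acts as a coactivator, the orphan receptor *Esrrg* (0.75, 0.0140), and the corepressors *Nrip1* (0.43, 0.0288) and *Ncor1* (0.36, 0.0299).

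Of 18 other PPAR target genes in the table, 4 were called higher at 10 weeks (7.39% of all genes) and 0 lower (8.71%), and the median of the 18 was -0.24. *Pex11a*, a peroxisome division factor, stood at 67 to 139 within WOS and 193 to 283 outside WOS (log2FC 1.08, adjusted p 0.00118 from limma). *Plin2*, a coat protein of lipid droplets, stood at 6191 to 9097 and 10674 to 21069 (0.90, adjusted p 0.00492). Neither of these overlapped between the ages. *Txnip*, an inhibitor of glucose uptake, was at 1009 to 1730 and 1385 to 2264 (0.54, adjusted p 0.0369).

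The genes that control CPT1 through malonyl-CoA all had positive log2FCs, 9 of 9 in the table, with a median of 0.40. The median was 0.10 without rat 80, 0.15 with sample quality weights and 0.17 in the larger set, with 1, 2 and 2 negative values, and 1 was negative under library size scaling. *Mlycd*, the gene at the median, named after its values were seen, had means of 28.0 and 22.7 and a 0 in rat 80. *Acacb*, the mitochondrial acetyl-CoA carboxylase whose malonyl-CoA inhibits CPT1, stood at 420 to 1109 within WOS and at 1255 to 3211 outside WOS (log2FC 1.26, adjusted p 0.00958 from limma). *Prkaa2* and *Prkab2*, subunits of the kinase AMPK that inhibits the carboxylase, had log2FCs of 0.84 and 0.63 with adjusted p of 0.00485 and 0.00265. These 3 genes were called with each rat left out in turn and did not overlap between the ages.

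In the other lists the called genes were few. Of 12 genes of fatty acid uptake and activation in the table, *Fabp5*, an intracellular fatty acid carrier, was called higher at 10 weeks (log2FC 0.63, adjusted p 0.0320 from limma) and 0 lower. Of 13 peroxisomal genes, *Pex11a* was the 1 called. Among the ketone body genes *Bdh1*, the mitochondrial hydroxybutyrate dehydrogenase, was called lower (-0.76, adjusted p 0.0314). In all, 157 of 181 listed symbols other than the 10 genes were in the table, in 158 rows because *Nr3c1* has 2, and 24 rows were called higher and 9 lower, or 20.9% beside the 16.1% over all genes.

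Lists of genes known to respond to the signals that act on *Pdk4* or on the other kinases were read in the same way. Of 16 rows for other glucocorticoid target genes, 2 of them for *Nr3c1*, 4 were called higher at 10 weeks (7.39% of all genes) and 0 lower (8.71%). *Errfi1*, a feedback inhibitor of the EGF receptor, was at 9376 to 10697 and 15524 to 22337 (log2FC 0.90, adjusted p 0.000170 from limma), and *Fkbp5*, a chaperone of the glucocorticoid receptor, was at 199 to 296 and 349 to 494 (0.71, adjusted p 0.00281). Neither overlapped between the ages. *Ddit4*, an inhibitor of mTORC1, had a log2FC of 0.87 and the transcription factor *Zbtb16* of 1.24, with adjusted p of 0.0222 and 0.0335. The median of the 16 rows was 0.15, and with *Pdk4* and *Angptl4* counted, 8 of 18 log2FCs of this list were negative.

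Of 12 other FOXO target genes, 4 were called higher (7.39% of all genes) and 0 lower (8.71%), namely *Trib1* (log2FC 0.71, adjusted p 0.00208 from limma), *Txnip*, *Fbxo32* (0.45, 0.0338), a ubiquitin ligase subunit, and the insulin receptor *Insr* (0.43, 0.0138). The median of the 12 was 0.16, and with *Pdk4* counted, 4 of 13 log2FCs were negative. Of 16 other hypoxia target genes, 4 were called higher and 0 lower, beside the same shares of all genes, while *Pdk1* and *Pdk3*, which belong to that list, had the lower means given above. The 4 were *Ndrg1* (0.86, adjusted p 0.00582), the growth factor *Vegfa* (0.62, 0.00358), hexokinase *Hk2* (0.43, 0.0367) and the carbonic anhydrase *Car9* (0.90, 0.0477). The median of the 16 hypoxia target genes was -0.006, and with *Pdk1*, *Pdk3* and *Angptl4* counted, 10 of 19 log2FCs were negative.

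Several calls of pathway genes were lost when 1 rat was left out. *Lpin1* and *Ddit4* lost theirs without rat 70 or 84 (adjusted p from limma up to 0.0549 and 0.0558), *Nrip1* without rat 70, 72, 74, 75 or 84 (up to 0.0602), *Lmf1* without rat 70, 72, 74, 84 or 87 (up to 0.067) and *Fbxo32* without rat 70, 74, 78, 84 or 87 (up to 0.08). *Bdh1*, *Zbtb16*, *Fabp5*, *Crat*, *Ncor1*, *Mgll*, *Hk2*, *Cfd*, *Acad8*, *Txnip*, *Pdhb* and *Car9* lost theirs in 6 to 11 of the 13 fits that left out 1 rat, with adjusted p up to 0.109 for *Car9* and 0.106 for *Pdhb*. In each of these fits the direction was the same. Library size scaling ended the calls of *Fabp5*, *Nrip1*, *Ncor1*, *Txnip*, *Hk2* and *Fbxo32* (adjusted p 0.0508 to 0.0751), and median-ratio scaling that of *Pdhb* (0.0528). Limma-trend gave *Acad8* an adjusted p of 0.0661, and a pseudocount of 0.1 gave *Adipoq* 0.0537 and *Plin1* 0.0533.

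The cells were checked against markers of mammary epithelium and of other cell types. All 11 luminal markers were in the table, with a summed normalized count of 30056 to 60714 within WOS and 43583 to 69454 outside WOS, and 1 was called, *Epcam* (log2FC 0.39, adjusted p 0.0454 from limma). The 7 basal markers summed to 22593 to 34339 and 30622 to 40530, with 0 called. Of 7 fibroblast markers 5 were called lower at 10 weeks (8.71% of all genes), with sums of 106962 to 223018 and 19450 to 55489, so these collagen-rich sums differed between the ages without overlap. Of 6 mast cell markers 5 were called lower (8.71% of all genes) and *Kit*, which luminal cells also express, higher (7.39%). Among 8 macrophage, 4 skeletal muscle and 2 brown fat markers 0 were called, and of 3 lymphocyte markers 1 was called lower at single-digit means. The muscle genes *Ckm* and *Mylpf* and the brown fat gene *Ucp1* were not analysed here. The part that this shift in stromal markers had in the values of the 10 genes was not tested.

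The genes whose rat-to-rat pattern was most like that of *Pdk4* were found by Pearson's r of the deviations from the mean of each age over the 13 rats, among 8857 genes with a mean of at least 100. They were *Usp54* (r = 0.876), *Zfp36l1* (0.822), *Kcnj14* (0.793), *Efnb2* (0.79) and *Sox9* (0.788). *Zfp36l1* encodes a protein that promotes the decay of mRNAs, and *Sox9* is a transcription factor of mammary stem and progenitor cells. All genes of a rat share the scaling of its library in these values, so the coefficients are a description. Of the 10 genes, *Angptl4* (0.551) and *Acadl* (0.526) had the highest r with *Pdk4*, and *Pdk1* (-0.619), *Pdk3* (-0.609) and *Acadm* (-0.51) the lowest. Among the rats at 10 weeks alone, the coefficients of *Pdk1* and *Pdk3* with *Pdk4* were -0.688 and -0.713. Rat 78 had the highest *Pdk4* (13242) and the lowest *Pdk1* (41) and *Pdk3* (45) of these rats. At 6 weeks the coefficients were -0.385 and -0.458. There rat 84 had the lowest *Pdk4* (733), the highest *Pdk3* (316) and, with rat 71, the highest *Pdk1* (155). The 10-week coefficients were not computed without rat 78, nor the 6-week ones without rat 84. They therefore do not show a tendency among the other rats.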

How the data were processed

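RNA-seq libraries of mammary epithelial cells from 13 rats were grouped by age from their titles. Per the paper and the submitters' processing notes, the authors estimated counts with RSEM 1.2.22. The notes name rn5, the paper rn6, and the annotation is not given in the sources used here. The unit of the deposited values is taken as a score, namely counts that the authors scaled per library and rounded. The authors' deposited columns of their edgeR comparison (fold changes and mean abundance as log2, a likelihood ratio score, p-values and false discovery rates) and a column on nuclear or cytoplasmic location were not used, and neither were edgeR and DESeq2.

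Genes with a mean of at least 1 were fitted with limma 3.58.1 in R 4.3.3 on log2(value + 1), two-sided, with no covariate, with Benjamini-Hochberg adjustment and a 0.05 threshold, and the script was tested on simulated data. The unscaled depth is not stated, so no counting interval is given. Promoters were read from RefSeq (GRCr8) in Python 3.11.15.

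The 10 genes and all lists were chosen with earlier results of these data known. Named by rule were the 10 genes, up to 4 called genes per list and direction with a mean of at least 100, the 5 genes most like *Pdk4*, and *Ppara*, *Ppard*, *Pparg*, *Ppargc1a*, *Lpl*, *Cpt1b*, *Pdha1*, *Pdp1*, *Pdp2* and *Adipoq*. Other genes were named after their values were seen. A further gene that the rule names is not reported here. Each of these was changed in turn: the scaling (median-ratio, upper quartile or library size), the pseudocount (0.1), the minimum (none, or 10 in every rat), the model (limma-trend, sample quality weights, or a term for the first residual component) and the rats (each set alone, or 1 rat left out).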

Additional observations from a re-analysis of the deposited data

Results flagged for a closer look

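In the 6 rats at 6 weeks, the *Pdk4* value of rat 84 lay far from the others. It was 733, where the other 5 rats had 1265 to 1462. Without rat 84 the log2 fold change of *Pdk4* was 2.40. In the 7 rats at 10 weeks, the *Acadl* value of rat 74 lay far from the others, at 1204 beside 804 to 962 in the other 6 rats. Without rat 74 the log2 fold change of *Acadl* was 0.30 with an adjusted p of 0.122 from limma. Of the 20 sets of values examined (10 genes at 2 ages), chance alone flags about 1 in 20.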

How the results depend on the processing

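*Pdk4* was higher at 10 weeks under all 24 alternatives, with a log2 fold change of 2.26 to 2.88. The direction of *Pdk1*, *Pdk3*, *Acadl*, *Acadvl* and *Angptl4* was the same under all 24. Of the 9 genes other than *Pdk4*, limma called 0 under each scaling, and 1 with at least 10 counts in every rat, 2 with limma-trend, 4 with sample quality weights, 3 with a term for the first residual component, 3 in the larger set and 0 to 1 with 1 rat left out. All genes called numbered 2381, with 5647 under sample quality weights, 3478 in the larger set, 0 in the smaller set (n = 5) and 1411 to 2680 with 1 rat left out. Lowest were rats 70 (1411), 84 (1488) and 87 (1558). Pathway genes called numbered 33, with 78 under sample quality weights, 53 in the larger set, 0 in the smaller set and 18 to 38 with 1 rat left out (18 without rat 70 or 74, 19 without rat 84, 20 without rat 87), a count added after the data were seen. The cause was not tested.

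The sign changed for genes that were not called. Under sample quality weights the log2 fold change was -0.14 for *Pdk2*, -0.077 for *Cpt1a*, -0.067 for *Pdp2* and 0.24 for *Echs1*. In the larger set it was -0.40 for *Pdk2*, -0.043 for *Cpt1a*, -0.039 for *Pdp2* and 0.006 for *Pdha1*. In the smaller set it was 0.19 for *Cpt2*, 0.14 for *Acadm*, 0.045 for *Hadha*, 0.15 for *Hadh*, 0.35 for *Acaa2*, 0.22 for *Etfa* and 0.10 for *Acat1*. *Ppard* was 0.01 under median-ratio scaling. With 1 rat left out it ran from -0.12 to 0.21 for *Pdk2*, -0.11 to 0.15 for *Ppard*, -1.66 to 0.01 for *Echs1* and -0.12 to 0.001 for *Pdha1*.

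No paired analysis was possible because each rat has a number of its own and the ages share none. The values are scaled and rounded and their unscaled depth is unknown, so precision at low values such as *Pdk2*, *Cpt2* and *Ppara* cannot be given per rat. The promoter windows follow GRCr8, while the counts follow another build.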
